A study of Mus musculus with 8 samples.

Results

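The genes described here are 28 genes of cholesterol synthesis and its control, chosen by gene symbol from 55450 genes in a table of liver RNA-seq values. They comprise 19 synthesis enzymes, 4 regulators, and 5 genes of sterol uptake, trafficking and esterification. The regulators are Srebf2, which encodes the transcription factor SREBP2, and Scap, Insig1 and Insig2, which control it. All 28 had enough signal to be tested, as did 16672 genes in all. The livers came from mice on an ethanol diet that had received an adeno-associated virus (AAV). In 4 mice the virus was AAV-H19, named for the long non-coding RNA H19 (libraries 25, 26, 27 and 28), and in the other 4 it was AAV-Null, the control virus (libraries 21, 22, 23 and 24). The promoter of the virus, the strain, the age and the sex were not given in the sources used here, and every mouse in the comparison was fed ethanol.

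Hepatocytes make cholesterol from acetyl-CoA through mevalonate, isoprenoid diphosphates, squalene and lanosterol. When membrane sterol is low, SCAP escorts SREBP2 from the endoplasmic reticulum to the Golgi, where proteases free a fragment that enters the nucleus and raises transcription of the synthesis genes. When sterol is high, INSIG proteins hold SCAP in the endoplasmic reticulum, and oxysterols activate the nuclear receptor LXR, which raises efflux genes such as Abca1.

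The promoters of 4 members are shown because the results turn on these genes: Hsd17b7 was the 1 enzyme that passed the test, Hmgcs1 held the full sterol response element searched for, and Srebf2 and Insig2 had the highest fold changes among the regulators. Each window is 300 bases long, spans the annotated start and comes from RefSeq annotation of GRCm38.p6, at chr1:169969156-169969455 on the minus strand for Hsd17b7, chr13:119690101-119690400 on the plus strand for Hmgcs1, chr15:82147019-82147318 on the plus strand for Srebf2 and chr1:121332540-121332839 on the minus strand for the most upstream of the Insig2 starts listed. Capitals mark, on either strand, the letters TCACNCC that begin the sterol response element (TCACNCCAC in full) and the letters CCAAT, bound by NF-Y, a partner of SREBP2.
Hsd17b7: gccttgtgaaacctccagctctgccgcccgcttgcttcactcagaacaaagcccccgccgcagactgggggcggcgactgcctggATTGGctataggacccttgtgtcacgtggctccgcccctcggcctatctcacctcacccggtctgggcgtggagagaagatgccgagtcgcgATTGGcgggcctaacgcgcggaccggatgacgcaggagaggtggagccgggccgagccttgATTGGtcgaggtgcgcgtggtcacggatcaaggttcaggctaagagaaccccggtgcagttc
Hmgcs1: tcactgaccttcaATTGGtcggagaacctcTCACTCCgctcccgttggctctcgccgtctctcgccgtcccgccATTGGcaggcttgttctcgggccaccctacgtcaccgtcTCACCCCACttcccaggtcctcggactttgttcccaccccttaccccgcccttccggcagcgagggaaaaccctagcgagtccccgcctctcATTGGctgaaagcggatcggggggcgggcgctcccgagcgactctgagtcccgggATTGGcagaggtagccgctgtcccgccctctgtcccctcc
Srebf2: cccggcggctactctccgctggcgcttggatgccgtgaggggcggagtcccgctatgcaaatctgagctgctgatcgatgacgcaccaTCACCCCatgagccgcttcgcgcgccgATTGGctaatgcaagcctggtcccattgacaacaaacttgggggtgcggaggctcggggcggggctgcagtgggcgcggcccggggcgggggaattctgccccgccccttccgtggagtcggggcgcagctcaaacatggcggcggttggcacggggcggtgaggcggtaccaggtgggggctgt
Insig2: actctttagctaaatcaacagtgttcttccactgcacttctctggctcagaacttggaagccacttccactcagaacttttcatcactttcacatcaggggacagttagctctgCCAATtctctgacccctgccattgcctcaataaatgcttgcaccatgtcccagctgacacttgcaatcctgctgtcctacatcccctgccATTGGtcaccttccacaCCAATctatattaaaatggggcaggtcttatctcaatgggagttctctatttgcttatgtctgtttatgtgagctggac

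RefSeq promoter windows were matched for 22 of the 28 genes, all but Fdps, Fdft1, Sqle, Npc1, Stard4 and Soat2. The counts below say nothing about the genes without a window. The full TCACNCCAC was found in 1 of the 22, Hmgcs1, against 1.24% of all 32851 promoter windows and 1.50% of the 11276 tested genes with a window. TCACNCC, which the full element contains, was found in 5 of the 22 genes (22.7%), against 15.6% of all windows and 19.005% of those tested genes. The genes were Acat2, Hmgcs1, Insig2, Msmo1 and Srebf2. For Insig2 the matches lie in its other windows, not in the one shown. CCAAT was found in 20 of the 22 genes, all but Acat2 and Scap, against 37.4% of all windows and 42.4% of those tested genes. GGGCGG, the core letters of the SP1 box, was likewise found in 20 of the 22, against 64.9% of those tested genes. These are matches of letters on both strands and show no binding.

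Srebf2 also carries a microRNA in an intron, miR-33, which in mouse liver is known to lower Abca1. Its mature form lies at chr15:82198127-82198147 on the plus strand. It is shown with its seed, bases 2 to 8, in capitals, above the stretch of the Abca1 3′ untranslated region, on chromosome 4, that holds 3 copies of the matching letters CAATGCA, with those copies in capitals and the first pair overlapping.
miR-33-5p: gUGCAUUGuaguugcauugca
Abca1: tattCAATGCAATGCActtCAATGCAacga

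Among the members, CAATGCA was found in the 3′ untranslated region of 2 of 28, Nsdhl and Soat2, against 7.58% of 13489 tested genes. Mature microRNAs are not captured by poly(A) libraries, and the miR-33 precursor gene was listed at 0 in all 8 libraries.

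The values are the authors' estimated counts per gene, with library totals between 63747006 and 78750916 units in AAV-H19 livers and between 78323212 and 82988372 units in AAV-Null livers. They are given below as CPM, the value scaled to a common library size, in library order. H19 itself checked the labels: it had 133, 155, 104 and 121 CPM in AAV-H19 livers, against 0.542, 0.142, 0.314 and 1.41 CPM in AAV-Null livers. Long transcripts were relatively more abundant in every AAV-H19 library (Spearman rho of CPM deviation with transcript length over protein-coding genes between 0.218 and 0.449) and less abundant in every AAV-Null library (between -0.413 and -0.122), so results are also given with an offset for each library's length trend. Kupffer cell and macrophage markers were lower, with 7 of 10 past the threshold and a summed level of 171 to 241 CPM in AAV-H19 livers against 306 to 469 CPM in AAV-Null livers. The count was 2 of 10 with the length offset and 3 of 10 without AAV-Null library 24. Hepatocyte markers summed to 106429 to 116068 CPM in AAV-H19 livers and 72538 to 109188 CPM in AAV-Null livers, and 1 of 7 passed in each direction. Alb makes up most of that sum and did not pass, with a log2 fold change of 0.32. Cps1 was the marker that passed as higher, at 1.38, while Tat at 1.43 and Serpinc1 at 0.03 did not pass. Ttr, Apoa2 and Asgr1 had negative values of -0.34, -0.68 and -0.90, of which that of Asgr1 passed. No gene of either marker list was at 0 in all libraries. The part of these shifts in the results below was not tested, and in whole liver fewer cells of a type and less RNA per cell cannot be told apart.

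Across the 28 genes, 1 was higher in AAV-H19 livers at an adjusted p under 0.05 (edgeR's quasi-likelihood test, adjusted over all genes tested), none was lower, and 27 did not pass. Over all genes tested, 5.60% passed as higher and 6.07% as lower, so the members' count of 1 was not above the background. The log2 fold change was above 0 for 12 members and below 0 for 16, with a median of -0.11 beside -0.02 over all genes tested. At an unadjusted p under 0.05 there were 8 members, 2 of them on the lower side, Npc2 and Soat2, against 29.8% of all genes tested. DESeq2 called 4 members higher, against 10.2% of all genes, and limma-voom called 2, against 6.34%. Neither called a member lower, against 12.6% of all genes by DESeq2 and 834 of 16672 genes by limma-voom. In 3 members, Hsd17b7, Scap and Npc1, every AAV-H19 liver lay above every AAV-Null liver. No member was separated the other way, and over all genes 12.1% were separated upward and 11.6% downward. With the transcript length offset no member passed, and the background was then 1.41% higher and 0.804% lower. At an unadjusted p under 0.05 there were then 6 members, against 22.3% of all genes tested.

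**Figure D1:**
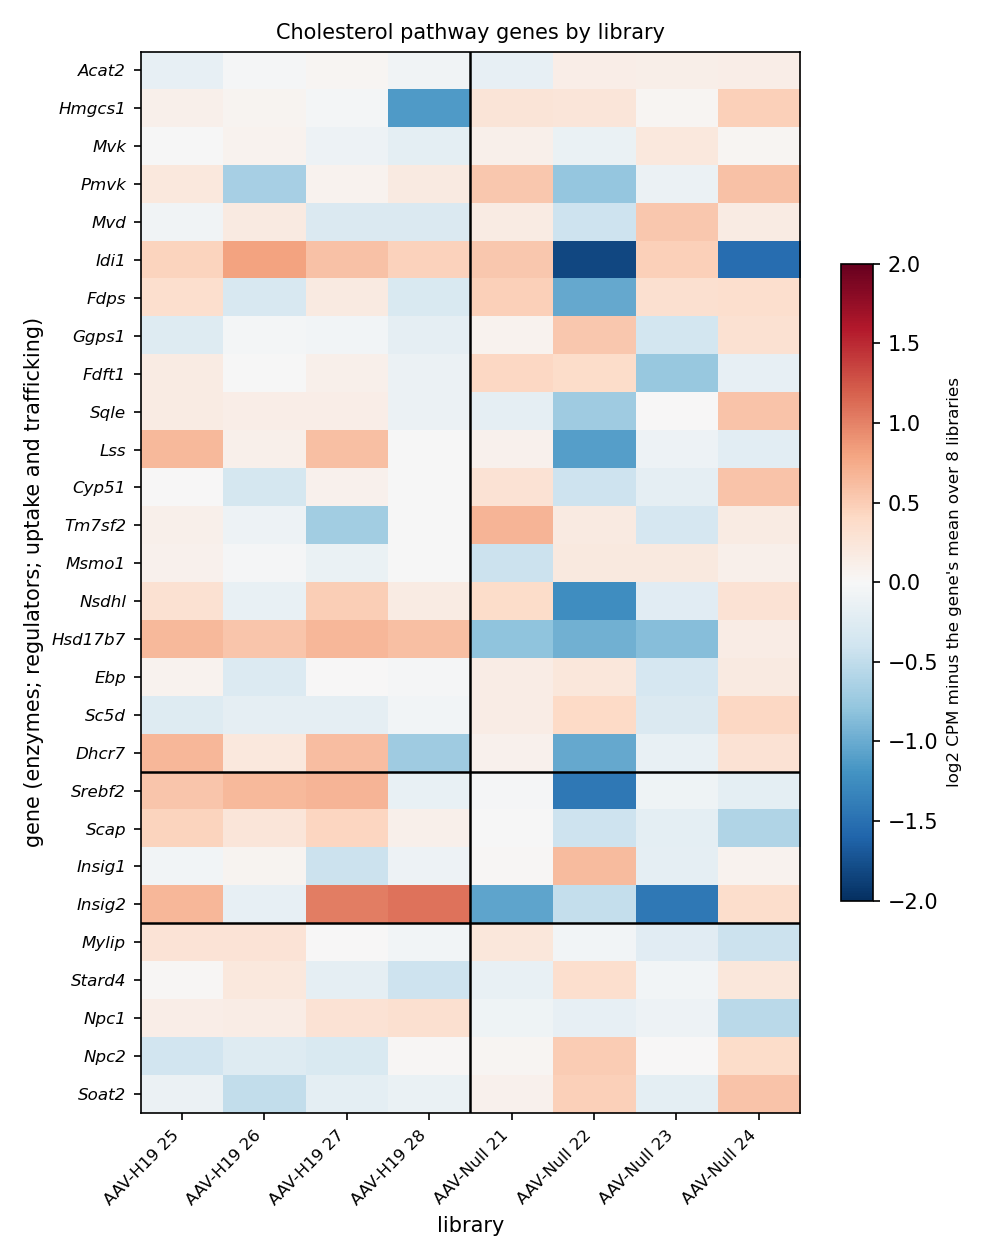
Heat map of log2 CPM minus the gene's mean over 8 libraries, for 19 enzymes (top), 4 regulators (middle) and 5 uptake and trafficking genes (bottom), with AAV-H19 libraries left of AAV-Null libraries. The AAV-Null 22 column is the lowest of its row for 10 of the 19 enzymes, beside 25.98% of all genes tested. Hsd17b7 is above its mean in all 4 AAV-H19 livers.

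Levels differed widely between the genes. Per kilobase of the longest annotated transcript, mean levels over all 8 livers were highest for Insig2 (243 CPM per kb) and for the late enzymes Ebp (106 CPM per kb), Sc5d (61.2 CPM per kb) and Cyp51 (40.0 CPM per kb). The early mevalonate enzymes Mvd and Mvk were at 5.48 and 5.32 CPM per kb, and Ggps1, which makes the geranylgeranyl diphosphate used on proteins, was the lowest member at 1.78 CPM per kb.

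Hsd17b7 (ENSMUSG00000026675, GRCm38 chr1:169949535-169969241, minus strand) encodes a keto reductase that completes the removal of methyl groups on the way from lanosterol to cholesterol. It had 53.9, 50.8, 54.6 and 52.0 CPM in AAV-H19 livers, against 19.6, 17.7, 19.1 and 38.0 CPM in AAV-Null livers. The AAV-H19 livers lay close together, and 1 control, library 24, stood between them and the other controls. The means were 52.8 ± 1.76 CPM in AAV-H19 livers and 23.6 ± 9.63 CPM in AAV-Null livers (SD, n = 4 each). Hsd17b7 rose by a log2 fold change of 1.16 ± 0.25 (SE, adjusted p = 0.0251, edgeR), and by 1.50 when AAV-Null library 24 was left out. With the length offset the value was 0.87 ± 0.26 (adjusted p = 0.101, edgeR), and over 10 alternative settings the adjusted p lay between 0.000689 and 0.101. Leaving out any 1 of the AAV-H19 libraries 25, 26, 27 or 28 also took the adjusted p past 0.05, to between 0.0540 and 0.0887, with the log2 fold change between 1.15 and 1.19.

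No other enzyme passed the edgeR test: among the 19 enzymes 7 had a log2 fold change above 0 and 12 below, with a median of -0.12, and 2 had an unadjusted p under 0.05, against 29.8% of all genes tested. DESeq2 and limma-voom also called 1 enzyme each. The second of the pair at the unadjusted threshold was Lss, lanosterol synthase, which closes the sterol rings. Lss had 38.9, 26.6, 37.4 and 24.6 CPM in AAV-H19 livers, against 26.3, 11.5, 22.97 and 21.3 CPM in AAV-Null livers. The groups overlapped at the lowest AAV-H19 liver and the highest AAV-Null liver. The log2 fold change of Lss was 0.64 ± 0.27 (SE, adjusted p = 0.144) and 0.17 ± 0.21 with the length offset (adjusted p = 0.681). Its longest transcript, at 6992 nt, is the longest of the 28.

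The steps before the isoprenoids start with Acat2, a cytosolic thiolase, and Hmgcs1, the HMG-CoA synthase. Hmgcs1 had 92.0, 88.8, 83.0 and 38.9 CPM in AAV-H19 livers, against 102, 102, 87.4 and 119 CPM in AAV-Null livers. A single AAV-H19 liver, library 28, was far below the rest, 27 was just below the lowest control, and 25 and 26 lay within the range of the controls. The log2 fold change was -0.44 ± 0.26 (SE, adjusted p = 0.286), and -0.22 without library 28. Acat2 averaged 50.5 ± 3.19 CPM in AAV-H19 livers and 54.6 ± 5.24 CPM in AAV-Null livers (SD, n = 4 each). Its tandem neighbour Acat3, a near copy on chromosome 17, held 7992 to 12649 units in AAV-H19 livers and 11653 to 14495 units in AAV-Null livers, so the split of reads between them is uncertain. Mvk, Pmvk and Mvd, which phosphorylate and decarboxylate mevalonate, had log2 fold changes of -0.12, -0.17 and -0.26, none past the test.

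Idi1, the isomerase that makes dimethylallyl diphosphate, varied more between control livers than any other member. It had 65.1, 83.4, 71.8 and 65.8 CPM in AAV-H19 livers, against 69.6, 13.4, 66.6 and 16.7 CPM in AAV-Null livers. AAV-Null libraries 21 and 23 were within the AAV-H19 range, while 22 and 24 were far below it. The log2 fold change was 0.78 ± 0.49 (SE, adjusted p = 0.320), and the copy Idi2 was listed at 0 in every library. Fdps, which builds farnesyl diphosphate, was low in 1 control: it had 132, 83.8, 119 and 84.4 CPM in AAV-H19 livers, against 145, 51.3, 130 and 131 CPM in AAV-Null livers. Ggps1 had a log2 fold change of -0.30 ± 0.21 (SE, adjusted p = 0.384).

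Squalene is made by Fdft1 and epoxidised by Sqle, a step known to limit flux in many cells. Fdft1 averaged 55.6 ± 4.94 CPM in AAV-H19 livers and 55.4 ± 18.97 CPM in AAV-Null livers (SD, n = 4 each). Sqle had 54.0, 52.7, 52.4 and 44.2 CPM in AAV-H19 livers, against 42.4, 29.5, 48.4 and 71.3 CPM in AAV-Null livers. The AAV-H19 values lay inside the range of the controls for both genes, and the log2 fold changes were 0.01 ± 0.25 for Fdft1 and 0.09 ± 0.24 for Sqle (SE). The sign of both changed with the scaling, to -0.10 for Fdft1 and -0.02 for Sqle with upper-quartile factors, which moved the median of all genes to -0.13, and both stayed above that median. Fdft1 overlaps Ctsb, a far more abundant gene on the opposite strand, by 774 nt, and no source used here says whether counting used strand.

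After lanosterol, Cyp51, Tm7sf2, Msmo1, Nsdhl, Ebp, Sc5d and Dhcr7 act with Hsd17b7 to trim and reduce the sterol. Sc5d, the desaturase that acts on lathosterol, had 240, 255, 253 and 278 CPM in AAV-H19 livers, against 318, 379, 237 and 384 CPM in AAV-Null livers. All but 1 of the controls lay above every AAV-H19 liver, and the log2 fold change was -0.36 ± 0.18 (SE, adjusted p = 0.218) or -0.69 ± 0.23 with the length offset (adjusted p = 0.124). Dhcr7, which reduces the last double bond of one branch, had 133, 96.5, 129 and 51.5 CPM in AAV-H19 livers, against 88.9, 41.4, 75.9 and 102 CPM in AAV-Null livers. Its lowest AAV-H19 liver, library 28, was also the low one for Hmgcs1. The sterol dehydrogenase Nsdhl, on chromosome X, had 49.3, 35.9, 55.8 and 44.8 CPM in AAV-H19 livers, against 51.4, 16.9, 34.1 and 48.4 CPM in AAV-Null livers, again with library 22 lowest. Cyp51, the lanosterol demethylase, Tm7sf2, a sterol reductase, Msmo1, the methylsterol oxidase, and Ebp, a sterol isomerase, had log2 fold changes of -0.18, -0.36, -0.05 and -0.12, none past the test. Tm7sf2 shares 532 nt with Vps51 on the same strand, and the value was -0.26 with the overlapping genes summed.

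**Figure D2:**
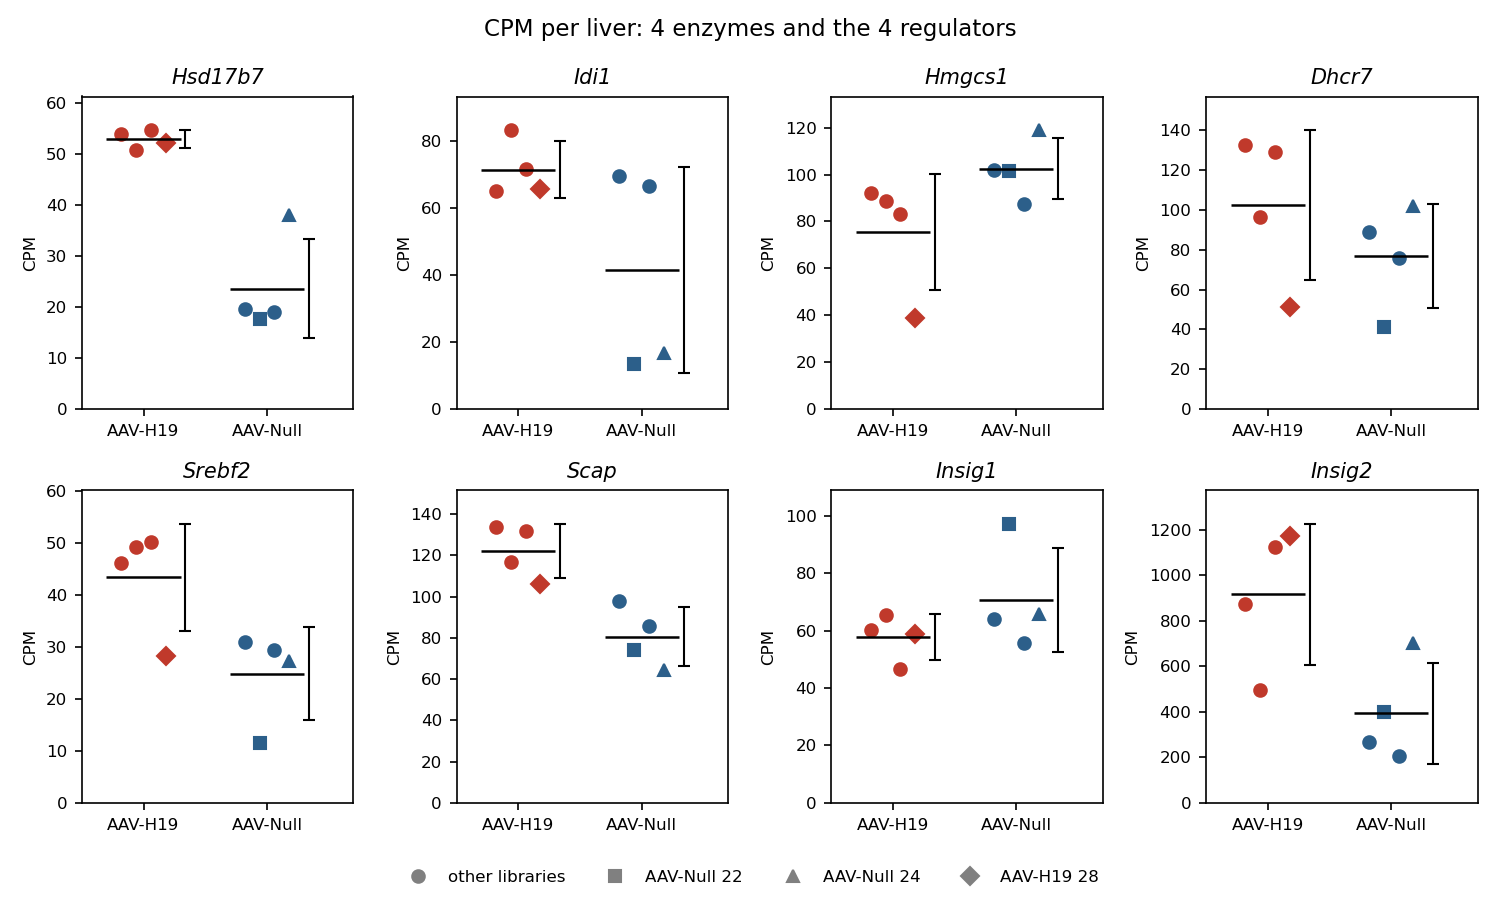
CPM per liver for 4 enzymes (top row) and the 4 regulators (bottom row), AAV-H19 left and AAV-Null right in each panel. The line is the mean and the bar is 1 SD of 4 livers, and squares, triangles and diamonds mark libraries 22, 24 and 28. Hsd17b7 and Scap are separated without overlap, Idi1 is low in AAV-Null 22 and 24, and Hmgcs1 and Dhcr7 are low in AAV-H19 28.

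The 4 regulators had a median log2 fold change of 0.70, with 3 above 0 and 1 below. None passed the edgeR test. At an unadjusted p under 0.05 there were 3, against 29.8% of all genes, and DESeq2 called 2 higher and limma-voom 1, against 10.2% and 6.34% of all genes. Srebf2 itself (ENSMUSG00000022463, chr15:82147181-82205379, plus strand) had 46.2, 49.1, 50.1 and 28.2 CPM in AAV-H19 livers, against 30.9, 11.6, 29.5 and 27.4 CPM in AAV-Null livers. All but library 28 of the AAV-H19 livers lay above every control. Its log2 fold change was 0.80 ± 0.31 (SE, adjusted p = 0.114), or 0.49 ± 0.26 with the length offset (adjusted p = 0.303).

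Scap, the escort of SREBP2 (ENSMUSG00000032485, chr9:110333288-110384950, plus strand), had 134, 117, 132 and 106 CPM in AAV-H19 livers, against 97.6, 74.0, 85.9 and 64.5 CPM in AAV-Null livers. The groups did not overlap. The log2 fold change was 0.60 ± 0.17 (SE, adjusted p = 0.0513, edgeR), just outside the threshold. It was inside in 6 of 10 alternative settings, with adjusted p between 0.0128 by DESeq2 and 0.166 with the length offset, under which the log2 fold change was 0.39 ± 0.15. Leaving out each library in turn gave log2 fold changes of 0.52 to 0.70 and adjusted p of 0.0399 to 0.149, with 1 of the 8 fits, that without AAV-Null library 21, inside the threshold.

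The INSIG genes, which hold SCAP back, differed from each other in size and sign. Insig2 (ENSMUSG00000003721, chr1:121304353-121332589, minus strand), whose liver form is known to be lowered by insulin, had 873, 494, 1127 and 1172 CPM in AAV-H19 livers, against 267, 398, 206 and 703 CPM in AAV-Null livers. The means were 917 ± 311 CPM in AAV-H19 livers and 394 ± 221 CPM in AAV-Null livers (SD, n = 4 each), and the groups overlapped through AAV-H19 library 26 and AAV-Null library 24. Its log2 fold change of 1.22 ± 0.40 (SE, adjusted p = 0.0738, edgeR) was the highest of the 28 and was also 1.22 with the length offset (adjusted p = 0.126). It passed by DESeq2 (adjusted p = 0.0202). Leaving out each library in turn gave log2 fold changes between 0.99, without AAV-Null library 23, and 1.66, without AAV-Null library 24, and adjusted p of 0.0356 to 0.185, with 1 of the 8 fits, that without library 24, inside the threshold. Insig1, a direct SREBP2 target, had 60.4, 65.3, 46.6 and 58.7 CPM in AAV-H19 livers, against 64.2, 97.2, 55.6 and 65.8 CPM in AAV-Null livers, with a log2 fold change of -0.29 ± 0.20 (SE, adjusted p = 0.366). The difference between the changes of the INSIG genes was not tested.

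**Figure D3:**
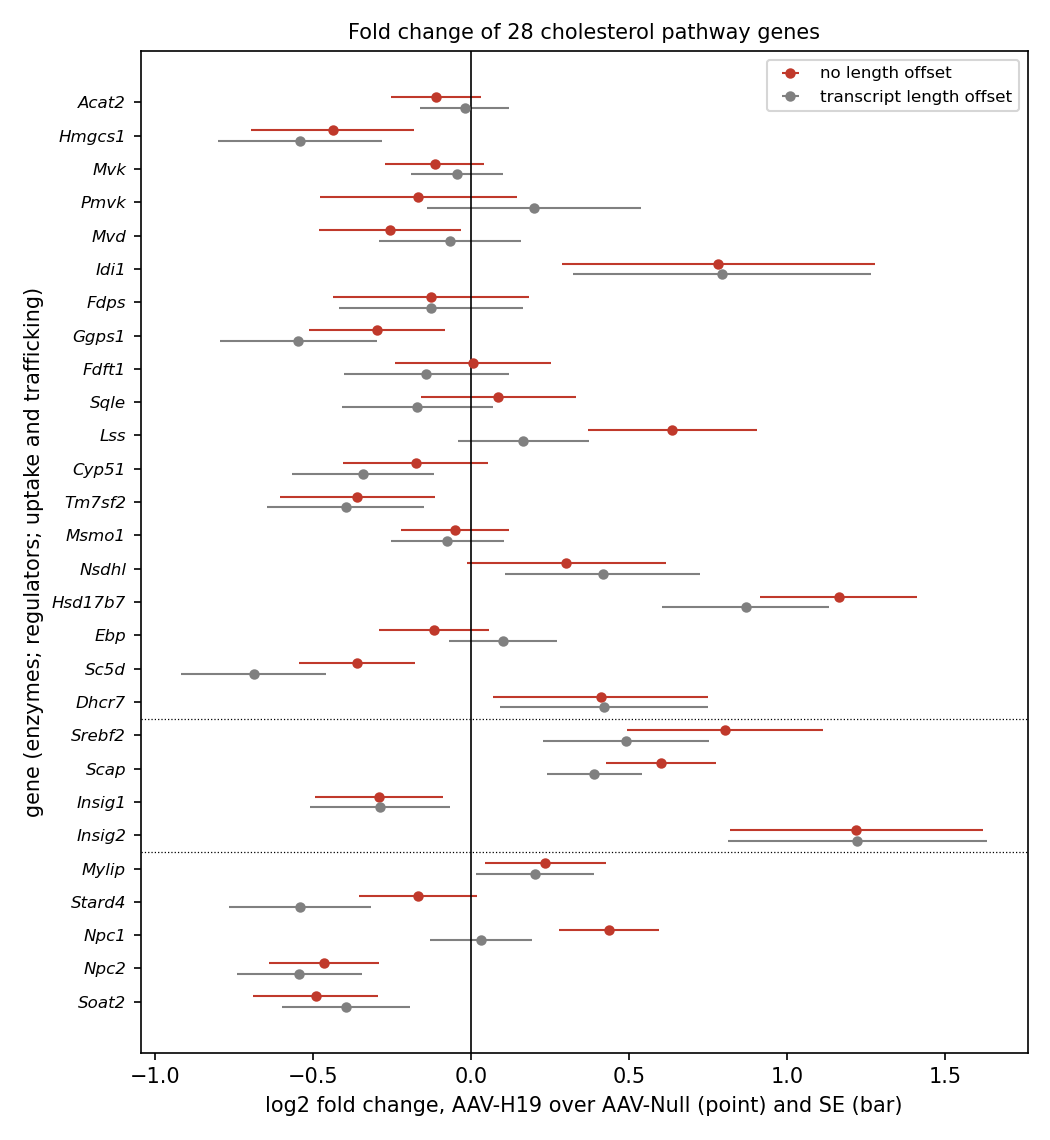
Log2 fold change, AAV-H19 over AAV-Null, of the 28 genes without (red) and with (grey) the transcript length offset, where the point is the fitted value and the bar is its SE. Hsd17b7 and Insig2 lie furthest to the right, at 1.16 and 1.22 without the offset and at 0.87 and 1.22 with it. Without the offset, the fitted points of the other enzymes lie between -0.44 (Hmgcs1) and 0.78 (Idi1).

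Of the 5 genes of uptake, trafficking and esterification, none passed the edgeR test, and 3 had an unadjusted p under 0.05, against 29.8% of all genes. DESeq2 called 1 of the 5 higher (Npc1), against 10.2% of all genes, and limma-voom none. Npc1, which moves cholesterol out of the lysosome, had 147, 149, 163 and 167 CPM in AAV-H19 livers, against 126, 120, 125 and 91.8 CPM in AAV-Null livers. The groups did not overlap, and the log2 fold change was 0.44 ± 0.16 (SE, adjusted p = 0.0958, edgeR), 0.41 by DESeq2 (adjusted p = 0.0499) and 0.03 ± 0.16 with the length offset (adjusted p = 0.934). Its soluble partner Npc2 had 58.7, 64.2, 61.6 and 77.9 CPM in AAV-H19 livers, against 78.8, 109, 76.8 and 98.5 CPM in AAV-Null livers. The Npc2 groups overlapped at 1 liver each, and the log2 fold change was -0.47 ± 0.17 (SE, adjusted p = 0.104). Soat2, the enzyme that esterifies cholesterol in hepatocytes, had 50.3, 38.6, 47.4 and 49.7 CPM in AAV-H19 livers, against 57.8, 76.0, 47.4 and 80.4 CPM in AAV-Null livers, a log2 fold change of -0.49 ± 0.20 (SE, adjusted p = 0.126). Mylip, a ubiquitin ligase and LXR target, and Stard4, a sterol carrier, had values of 0.23 ± 0.19 and -0.17 ± 0.19 (SE).

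**Figure D4:**
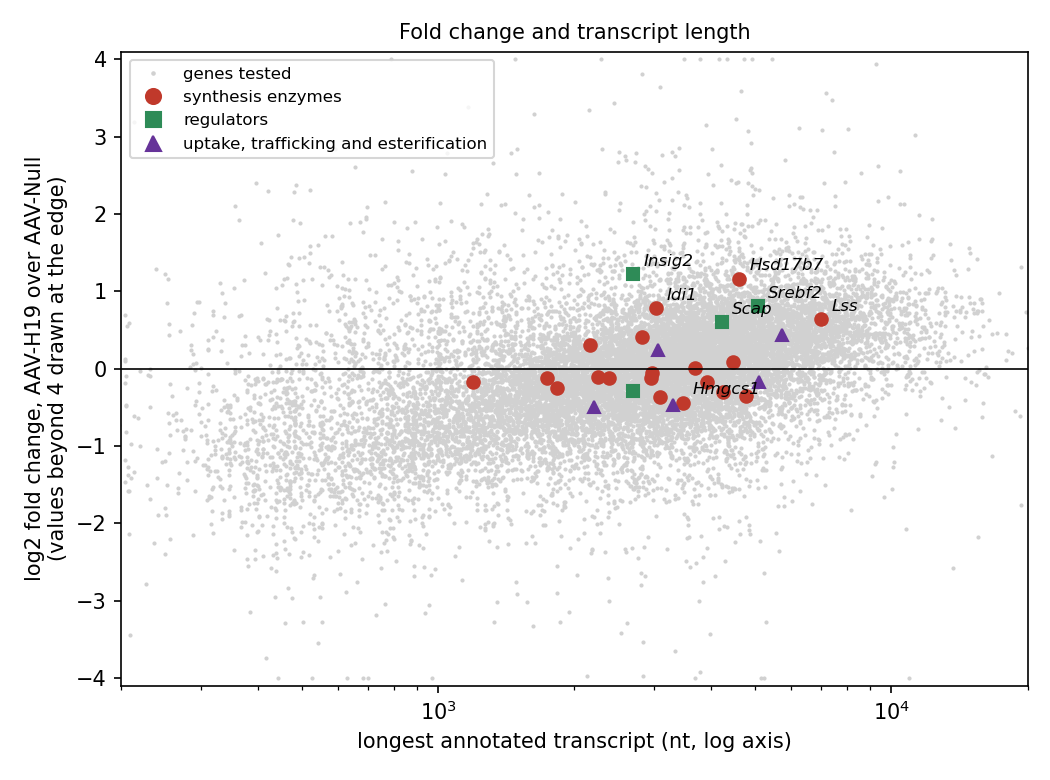
Log2 fold change, AAV-H19 over AAV-Null, against the longest annotated transcript on a log axis, for the genes tested that fall within the axis (grey) and the 28 members (colours). Long members lie on both sides of 0, more of them above it. Scap (4227 nt), Sqle (4467 nt), Hsd17b7 (4612 nt), Srebf2 (5077 nt), Npc1 (5756 nt) and Lss (6992 nt) lie above it. Ggps1 (4244 nt), Sc5d (4787 nt) and Stard4 (5097 nt) lie below it, while Insig2 and Insig1 have transcripts of 2697 nt each.

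The control livers varied more than the AAV-H19 livers. The SD of log2 CPM was larger in AAV-Null livers for 25 of 28 members (89.3%), beside 81.7% of 11211 genes with at least 1 CPM in every library. Its median over the members was 0.18 in AAV-H19 livers and 0.39 in AAV-Null livers, and over those genes 0.21 in AAV-H19 livers and 0.40 in AAV-Null livers. Within the control group the enzymes did not all follow 1 order. AAV-Null library 22 was the lowest of all 8 libraries for 10 of 19 enzymes and for Srebf2, and the highest for Ebp and Ggps1. That library also stood apart over all genes tested: it was the lowest for 25.98% and the highest for 26.5% of 16672 genes, and its correlation of log2 CPM with each other library was 0.897 to 0.932, beside 0.931 to 0.968 between the others. AAV-Null library 24 was the highest for 6 enzymes, Sqle, Cyp51, Sc5d, Hmgcs1, Pmvk and Acat2, beside 11.2% of all genes tested. It was nearly as low as library 22 for Idi1. Without library 22 the count of members past the test stayed at 1, and the median of the 28 was -0.09. Without library 24 it was 2, Hsd17b7 and Insig2, and the median was -0.04. Over all genes, 1023 of 17077 passed as higher and 929 as lower without library 22. Without library 24, 679 of 17083 passed as higher and 498 as lower.

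Around these 28 genes, 61 further genes of the pathway in 5 lists were examined by counts, and 5 were higher, 1 lower and 55 did not pass. Over all genes tested, 5.60% passed as higher and 6.07% as lower. With the length offset 1 of the 61, Paqr3, passed as higher, beside 1.41% of all genes higher and 0.804% lower. The 13 genes of SREBP processing and sterol-controlled degradation had 2 higher, Paqr3 and Syvn1, none lower, and a median log2 fold change of 0.31, or 0.07 with the length offset. Paqr3, known in mammalian cells to tether SCAP and SREBP to the Golgi, had 3.02, 4.32, 3.98 and 3.41 CPM in AAV-H19 livers, against 1.51, 1.59, 1.45 and 1.66 CPM in AAV-Null livers. It rose by 1.25 ± 0.22 (log2, SE, adjusted p = 0.0154, edgeR), and by 1.05 ± 0.22 with the length offset (adjusted p = 0.0470). It passed in all 10 alternative settings, the highest adjusted p being that with the offset, but not without AAV-H19 library 26 or 27 (log2 fold change 1.16 and 1.21, adjusted p = 0.0543 and 0.0694). Paqr3 shares 9539 nt with Bmp2k on the opposite strand, which held 7604 units over all libraries beside 1514 for Paqr3. Paqr3 was at a low level, with 225 to 282 units in AAV-H19 livers and 112 to 132 units in AAV-Null livers. Syvn1, a ubiquitin ligase of the endoplasmic reticulum, had 184, 122, 108 and 112 CPM in AAV-H19 livers, against 54.4, 27.3, 70.1 and 21.3 CPM in AAV-Null livers, with no overlap. Its log2 fold change was 1.60 ± 0.37 (SE, adjusted p = 0.0304, edgeR), or 1.45 ± 0.33 with the length offset (adjusted p = 0.0534), and without any 1 of the AAV-H19 libraries 25 to 28 the log2 fold change was 1.40 to 1.69 and the adjusted p between 0.0570 and 0.0917.

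The 10 genes of acetyl-CoA supply and redox partners had none past the edgeR test, 2 at an unadjusted p under 0.05, 1 lower by DESeq2 and none by limma-voom. The 13 genes of the isoprenoid branch likewise had none, with 2 at an unadjusted p under 0.05, 1 higher by DESeq2 and none by limma-voom. Over all genes tested, 29.8% had an unadjusted p under 0.05 by edgeR, and DESeq2 called 10.2% higher and 12.6% lower. Of the 10 genes of LXR and cholesterol efflux, Abca1, the exporter of cholesterol to apolipoprotein A-I, passed. Abca1 had 258, 153, 211 and 160 CPM in AAV-H19 livers, against 92.1, 84.3, 90.8 and 141 CPM in AAV-Null livers. The groups did not overlap, and the log2 fold change was 0.94 ± 0.24 (SE, adjusted p = 0.0355, edgeR). With the length offset it was 0.31 ± 0.26 (adjusted p = 0.519), the Abca1 transcript being 10262 nt long, and the call was lost when any 1 library other than AAV-Null 24 was left out (log2 fold change 0.78 to 1.04, adjusted p between 0.0534 and 0.112).

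Among 15 other uptake, transfer and storage genes, Osbp and Lrp1 were higher and Tmem97 was lower. Osbp, an oxysterol-binding protein that carries cholesterol to the Golgi, had 85.2, 82.0, 82.1 and 69.9 CPM in AAV-H19 livers, against 47.1, 40.9, 47.8 and 48.5 CPM in AAV-Null livers. It rose by 0.79 ± 0.14 (log2, SE, adjusted p = 0.0155, edgeR), with 0.53 ± 0.13 under the length offset (adjusted p = 0.0650), and it lost the call without AAV-H19 library 25, 26 or 27 (log2 fold change 0.76 to 0.78, adjusted p between 0.0543 and 0.0700). Lrp1, a remnant receptor with a transcript of 14888 nt, had 623, 408, 485 and 313 CPM in AAV-H19 livers, against 295, 211, 292 and 165 CPM in AAV-Null livers. The lowest AAV-H19 liver was just above the highest control, and Lrp1 rose by 0.93 ± 0.26 (log2, SE, adjusted p = 0.0488, edgeR). The Lrp1 call was lost when any 1 of the 8 libraries was left out (log2 fold change 0.74 to 1.07, adjusted p between 0.0507 and 0.140), and its log2 fold change was 0.36 ± 0.18 with the length offset (adjusted p = 0.286). Tmem97, a partner of NPC1 and an SREBP target in human cells, had 81.1, 91.7, 85.4 and 101 CPM in AAV-H19 livers, against 152, 114, 153 and 149 CPM in AAV-Null livers. Every AAV-H19 liver was below every control, and the log2 fold change was -0.66 ± 0.16 (SE, adjusted p = 0.0329, edgeR). Its transcript is short, 1375 nt, and the value was -0.34 ± 0.17 with the length offset (adjusted p = 0.283). The Tmem97 call was also lost without any 1 of the AAV-H19 libraries 25 to 28 or AAV-Null library 21 or 24 (log2 fold change -0.72 to -0.61, adjusted p between 0.0516 and 0.113).

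**Figure D5:**
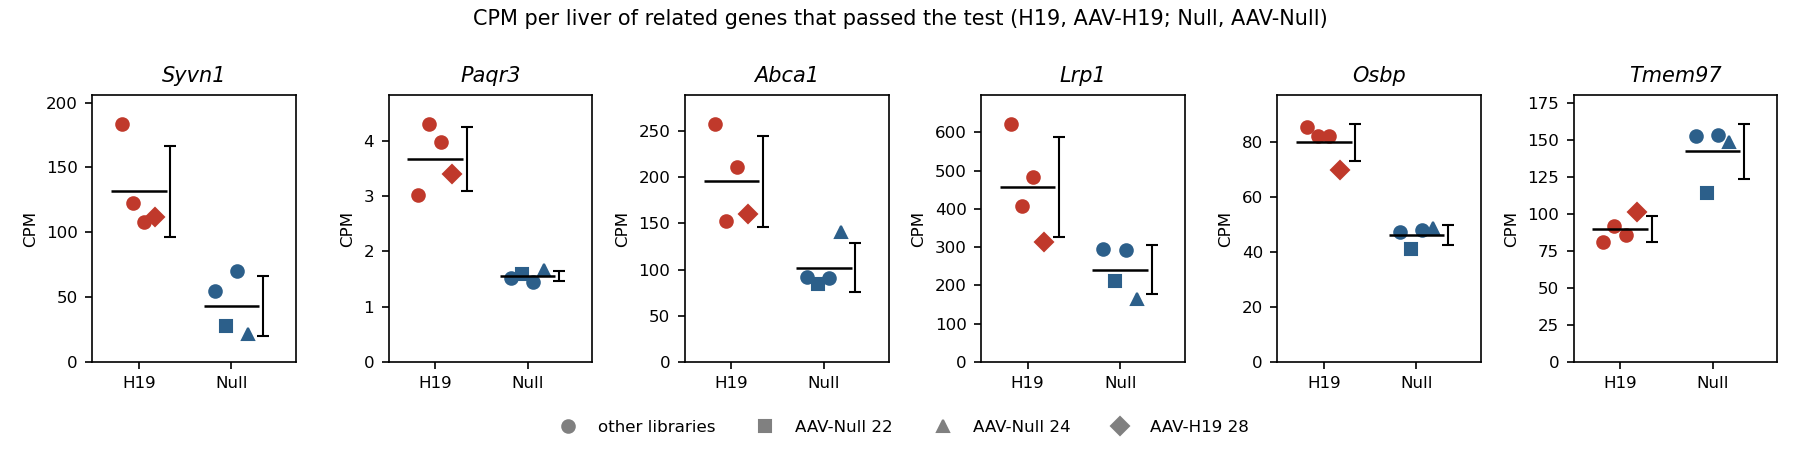
CPM per liver of the 6 further pathway genes that passed the test, AAV-H19 left and AAV-Null right, with the mean as a line and 1 SD of 4 livers as a bar. In each panel the groups do not overlap, and Tmem97 is the one gene that is lower in AAV-H19 livers. The genes were drawn because they passed the test. Of all 61 further genes, 16 did not overlap (11 higher, 5 lower), beside 23.7% of all genes tested.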

How the data were processed

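Stranded poly(A) RNA-seq libraries were made from the livers of 8 mice, per the labels' protocols. The deposited table holds the authors' estimated counts per Ensembl gene, as whole numbers. HISAT and StringTie are named in the submitters' processing notes, without versions. No source used here names the genome build. Low values pile up at multiples of 4, so 1 unit is not 1 read, and depth in reads is unknown. Symbols, positions and transcript lengths were taken from GENCODE M21 (GRCm38), in which all 55450 gene IDs were found.

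Genes were kept with edgeR's filterByExpr (minimum count 10 and total 15): 16672 genes stayed in, and those dropped made up 0.0454% of the units. The quasi-likelihood test in edgeR 4.0.16 (R 4.3.3) was fitted with TMM scaling on all genes, 4 livers against 4, without covariates, and p-values were adjusted by Benjamini-Hochberg over all genes tested. The biological coefficient of variation was 0.389. The SE is the log2 fold change over the root of the F statistic. The scripts were tested on simulated data. Alternatives used DESeq2 1.42.0, limma 3.58.1 (voom), other scaling and filters, a threshold of 0.1, offsets for transcript length or GC content (spline of 5 degrees of freedom), values divided by 4, overlapping genes summed, and each library left out. No 2 libraries were near duplicates. The labels do not say how the livers were sampled, so p-values measure only the spread between these 8 libraries.

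All 28 members are named, and from each of the 5 companion lists up to 4 genes past the threshold. The members and lists were chosen with earlier results of these data known. Some genes of the pathway are not analysed here.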

Additional observations from a re-analysis of the deposited data

Results flagged for a closer look

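In 8 of 70 groups of 4 livers, over 28 members, H19 and 6 related genes, 1 liver stood apart by a gap to its nearest neighbour that exceeded Dixon's critical share of the group's whole range. For independent, normally distributed values chance gives about 1 in 20 such groups. The groups here are the same 8 livers read over many genes, and the 6 related genes were taken because they passed the test. The count of 8 is therefore a description and was not tested against that rate.

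Of the AAV-H19 livers, library 28 was apart for Hmgcs1, with 38.9 CPM against 83.0 to 92.0 CPM in the other 3, and for Sqle, with 44.2 CPM against 52.4 to 54.0 CPM. Of the AAV-Null livers, library 24 was high for Hsd17b7, with 38.0 CPM against 17.7 to 19.6 CPM, and for Abca1, with 141 CPM against 84.3 to 92.1 CPM. Library 22 was low for Fdps, with 51.3 CPM against 130 to 145 CPM, and for Tmem97, with 114 CPM against 149 to 153 CPM. Library 21 was low for Acat2, with 46.7 CPM against 57.0 to 57.4 CPM, and library 23 was low for Ebp, with 145 CPM against 203 to 214 CPM.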

How the results depend on the processing

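Of 654 refitted values of 34 genes, 571 kept direction and side of the threshold, 50 lost the call in 7 genes, 13 gained it in 3 genes (Scap, Insig2 and Npc1) and 20 changed sign in 7 genes. The genes that changed sign had log2 fold changes between -0.18 and 0.09. Members called higher numbered 4 by DESeq2 and 4 at a threshold of 0.1, 2 by limma-voom, with 1 CPM in 4 samples, with the GC offset, with values divided by 4 and with overlapping genes summed, and 0 with the length offset. Over all genes, 985 of 12671 were called higher with 1 CPM in 4 samples and 1188 of 16672 with the GC offset. With values divided by 4 the count was 1035 of 13894, and with overlapping genes summed it was 950 of 15815. For the members, leaving out each library gave 0 to 2 called higher, and 0 to 1 together with the length offset, a combination chosen after seeing the data. No alternative called a member lower. The enzyme median lay between -0.14 and -0.04 with each library left out, and between -0.07 and -0.00096 with the length offset too.

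Over all genes, 934 were higher and 1012 lower, against 1635 and 2010 by DESeq2, 1694 and 1885 at a threshold of 0.1, 235 and 134 with the length offset, and 656 and 1557 with upper-quartile factors. Leaving out each library gave 86 to 1023 higher and 27 to 1050 lower. With the length offset too, the counts higher and lower were 59 and 10, 37 and 8, 33 and 8, and 69 and 21 without AAV-H19 libraries 25, 26, 27 and 28 in turn, and 138 and 81, 353 and 231, 145 and 79, and 240 and 98 without AAV-Null libraries 21, 22, 23 and 24 in turn. With each library left out and the length offset, Hsd17b7 lay between 0.74 and 1.24, and it passed without AAV-Null library 24 (adjusted p = 0.00859).

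Signs changed for Pmvk (0.20) and Ebp (0.10) with the length offset, for Sqle with upper-quartile factors (-0.0229) and the length offset (-0.17), and for Fdft1 with DESeq2 size factors (-0.0219), upper-quartile factors (-0.10), DESeq2 (-0.0219), 1 CPM in 4 samples (-0.0266), the length offset (-0.14) and values divided by 4 (-0.00888). With each library left out, ranges crossed 0 for Pmvk (-0.38 to 0.0139), Fdps (-0.37 to 0.00138), Fdft1 (-0.19 to 0.15), Sqle (-0.0931 to 0.35), Cyp51 (-0.32 to 0.0225) and Msmo1 (-0.18 to 7.36e-05). DESeq2 size factors, DESeq2 and upper-quartile factors moved the median of all genes from -0.02 to -0.04, -0.04 and -0.13, and Fdft1 and Sqle stayed above it. With 1 CPM in 4 samples and with values divided by 4 that median was -0.00348 and -0.00829, and Fdft1 lay below it. The cause of the changes of sign was not tested. No paired analysis was run, because the labels number each library separately and do not say whether any livers were paired.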
